A study of Mus musculus with 4 samples.

Results

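Endothelial and pericyte nuclei, called vascular nuclei below, were, by a strict rule, 105 of the 35694 nuclei sequenced from mouse cerebral cortex (0.294%). They were chosen on their raw counts of unique molecular identifiers (UMIs, 1 for each captured RNA molecule). A nucleus was included when Flt1, Cldn5, Pecam1, Mecom, Pdgfrb and Rgs5 together gave at least 3 UMIs and at least 20 per 10000 UMIs of that nucleus, with no UMI of Slc17a7, Gad1, Gad2, Mog or Csf1r. The excluded genes mark excitatory neurons, inhibitory neurons, oligodendrocytes and microglia. The first 4 of the rule genes are endothelial markers and the last 2 mark pericytes and other mural cells.

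The study profiled single nuclei from the cortex of the right hemisphere of male C57Bl/6 J mice at postnatal day 100. Control mice were wild-type littermates (CrT+/y, 2 animals), and CrT-KO mice (CrT-/y, 2 animals) were hemizygous for a deletion of exons 5 to 7 of the X-linked creatine transporter gene Slc6a8, which affects every cell of the body. Each library held the nuclei of 1 animal, sorted by flow cytometry and captured with a 10x Genomics droplet kit. The libraries held 8282 and 9295 control nuclei and 9270 and 8847 CrT-KO nuclei, with 51507483 to 65240843 UMIs each. Of all barcodes 96 occurred in more than 1 library, none of them a vascular nucleus.

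Endothelial cells line the brain capillaries and form the blood-brain barrier, with tight junctions between cells and dedicated transporters and efflux pumps in their membranes. Pericytes are the mural cells wrapped around capillaries, sharing a basement membrane with the endothelium and held there by PDGF-BB from endothelial cells acting on PDGFR-beta (Pdgfrb). Vascular smooth muscle is the contractile mural cell of arterioles. Creatine reaches the brain partly from the blood, and the creatine transporter has been described at the endothelium.

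The 105 vascular nuclei comprised 10 and 36 nuclei of control replicates 1 and 2, and 39 and 20 nuclei of CrT-KO replicates 1 and 2. They were 0.121% (95% Wilson interval 0.0656 to 0.222) and 0.387% (0.280 to 0.536) of the control libraries, and 0.421% (0.308 to 0.575) and 0.226% (0.146 to 0.349) of the CrT-KO libraries. These intervals cover counting error only, and the sort and the authors' UMI minimum for calling a nucleus can set the shares. The share was 0.254 ± 0.188% in control and 0.323 ± 0.138% in CrT-KO mice (mean ± SD, n = 2 each), the ranges overlapped, and the difference did not exceed the spread between animals (two-sided exact permutation test, p = 0.667, with 0.333 the smallest p that 2 against 2 animals allow). No effect of genotype on the number of vascular nuclei was therefore detectable. The rule does not take every vascular nucleus: 10 other endothelial and pericyte markers, named below, chose 140 nuclei at the same thresholds, 43 of them outside the 105, with 22 in place of 10 in control replicate 1.

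Vascular nuclei were shallow. Their median was 1089 UMIs and 777 genes, against a median of 6031 UMIs over all nuclei, and their UMIs summed to 9688 and 40498 in control and 56086 and 20689 in CrT-KO animals. A single UMI of control replicate 1 was thus worth 1.03 per 10000 UMIs of its vascular nuclei, and 1 UMI of CrT-KO replicate 1 was worth 0.178. Mitochondrial transcripts made up 0.619% and 1.13% of vascular UMIs in control and 1.08% and 1.33% in CrT-KO animals, and 0.0507% to 0.0628% of all UMIs of the libraries. The doublet caller Scrublet marked 1 of the 105 vascular nuclei and 1236 of all nuclei (3.46%).

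The rule genes chose the nuclei, so their levels are a description. Flt1, a receptor for VEGF, gave 359 UMIs in 75 of the 105 nuclei and Mecom, a transcription factor of arterial and capillary endothelium, 249 UMIs in 65 nuclei. Pecam1, an adhesion molecule of endothelial junctions, gave 50 UMIs in 31 nuclei, and Cldn5, the main claudin of the blood-brain barrier, 30 UMIs in 20 nuclei. Among the mural genes, Rgs5, a regulator of G-protein signalling, gave 131 UMIs in 51 nuclei and Pdgfrb gave 90 UMIs in 37 nuclei. Cldn5 was uneven between libraries, with 1 and 8 UMIs in control and 20 and 1 UMIs in CrT-KO animals. Of the 105 nuclei, 20 held exactly 3 rule UMIs and 37 held at least 10, with a median of 7 and a maximum of 62. The lowest share of rule UMIs in an included nucleus was 21.8 per 10000. Just outside lay 14 nuclei with 2 rule UMIs and a sufficient share, of which 6 came from control replicate 1, and 7 nuclei with at least 3 rule UMIs and a share of at most 18.2 per 10000. The excluded genes removed a further 19 nuclei, 12 of them from control replicate 2.

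Rule UMIs were not confined to vascular nuclei. Any rule UMI at all occurred in 3.86% of 1941 excitatory reference nuclei (median 10588 UMIs), 2.96% of 3853 inhibitory nuclei (6521 UMIs), 1.02% of 1766 oligodendrocyte nuclei (1555.5 UMIs) and 5.29% of 473 microglial nuclei (1115 UMIs). The reference nuclei were defined by at least 3 UMIs of Slc17a7, at least 3 of Gad1 and Gad2, at least 2 of Mog or at least 2 of Csf1r.

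A nucleus was called endothelial-side where UMIs of Flt1, Cldn5, Pecam1 and Mecom outnumbered those of Pdgfrb and Rgs5, and mural-side where the reverse held. This gave 66 endothelial-side nuclei (6 and 25 in control, 20 and 15 in CrT-KO animals) and 36 mural-side nuclei (2 and 11 in control, 18 and 5 in CrT-KO animals), and 3 nuclei were tied. The endothelial-side share was 60% and 69.4% in control and 51.3% and 75% in CrT-KO animals, so the genotypes overlapped (64.7 ± 6.68% against 63.1 ± 16.8%, mean ± SD, n = 2 each, two-sided exact permutation test, p = 1). UMIs of both kinds of rule gene occurred in 34 nuclei, and 8 nuclei held at least 3 UMIs of each kind, 5 of them in CrT-KO replicate 1, 2 in CrT-KO replicate 2 and 1 in control replicate 2. The split leans on 4 endothelial against 2 mural rule genes. By the 10 other markers, 5 for each side, the endothelial-side share was 36.4% and 54.8% in control and 46.8% and 41.4% in CrT-KO animals, and 74 nuclei were mural. Rgs5 was the rule gene found most across sides, with 46 UMIs in endothelial-side and 81 in mural-side nuclei, whereas Pdgfrb gave 2 and 85 UMIs.

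**Figure D1:**
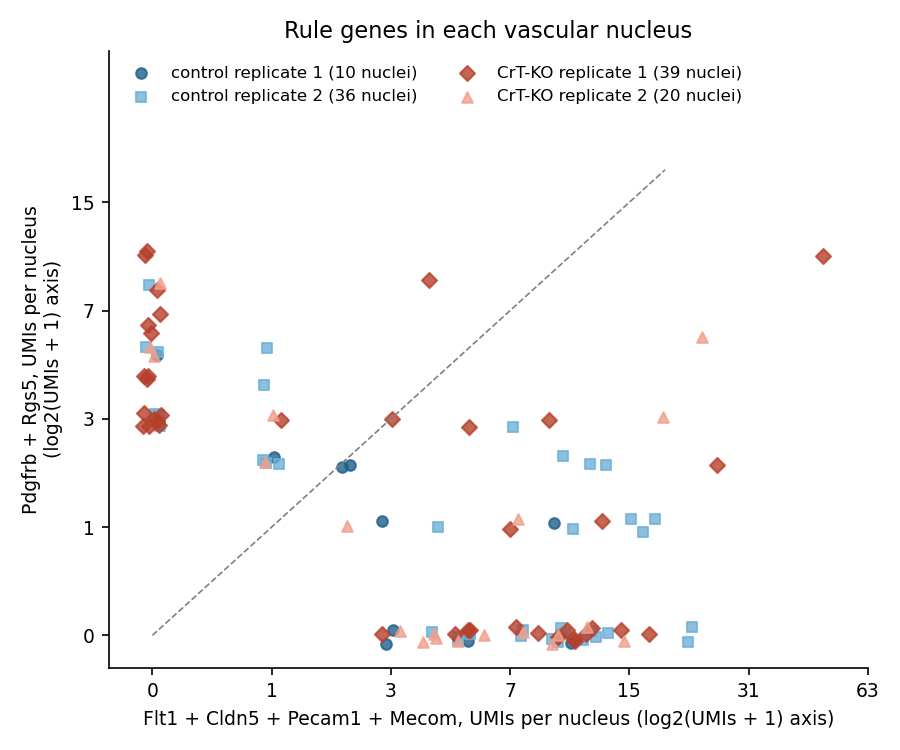
UMIs of the 4 endothelial rule genes (x) and the 2 mural rule genes (y) in each of the 105 vascular nuclei, on log2(UMIs + 1) axes with a small random offset, coloured by library. The dashed line marks equal UMIs, which divides 66 endothelial-side from 36 mural-side nuclei, and most nuclei lie along 1 of the axes.

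The label was checked against markers that the rule did not use. A marker list is given as its summed UMIs per 10000 UMIs of a population. The endothelial list of 30 genes stood at 167 per 10000 in vascular and 0.892 in all other nuclei, and without its 4 rule genes it was still 133-fold higher. Of the 10604 genes with a UMI in vascular nuclei, 7567 (71.4%) were higher there than in other nuclei when the libraries were summed, and 1267 (11.9%) were higher in each of the 4 libraries. Of the 26 endothelial genes outside the rule, 25 were higher in vascular nuclei and 20 were higher in each of the 4 libraries; Egfl7 was at 0. The pericyte and mural list of 20 genes stood at 141 against 1.81 per 10000 and was 69.2-fold higher without its rule genes, with all 18 others higher in the sum of the libraries and 14 in each library. This list was not confined to the mural side, at 280 per 10000 in mural-side and 55.6 in endothelial-side nuclei. It includes Ebf1, a gene of both sides. Both lists therefore went with the label of endothelial and pericyte nuclei, which is given as a description, since the nuclei were chosen on the same transcriptomes.

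Markers of other vessel-associated cells gave few UMIs. Smooth muscle genes summed to 8.98 per 10000 in vascular and 10.6 in other nuclei, where Ryr2 is also used by neurons. Acta2, smooth muscle actin, gave 11 UMIs in 2 mural-side nuclei, both of control replicate 2, Myh11, smooth muscle myosin, gave 12 UMIs in 10 nuclei, and Cnn1 was at 0. Fibroblast and meningeal genes summed to 3.1 and 4.94 per 10000 in control and 1.96 and 0 in CrT-KO animals, 34 UMIs in all, against 0.239 in all other nuclei, with 12 of the 14 genes detected and Lum and Slc22a6 at 0. In mural-side nuclei, at 43392 UMIs in all, the smooth muscle list stood at 15.4 per 10000, against 5.05 in endothelial-side nuclei. By library it stood at 10.9 and 27.2 in control and 11.3 and 8.38 in CrT-KO mural-side nuclei. Whether some mural-side nuclei were smooth muscle was not tested.

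Markers of neighbouring cells were also present. The neuronal list of 16 genes gave 186 and 168 per 10000 in control and 205 and 193 in CrT-KO vascular nuclei, with 763 in all other nuclei. Astrocyte genes gave 19.6 against 14.2 per 10000, with Aldh1l1, Gfap and Aqp4 at 0. Microglial genes gave 2.36 against 2.35 per 10000, with C1qa, C1qb, Ctss and Csf1r, which the rule excluded, at 0. Oligodendrocyte genes gave 4.57 against 8.05 per 10000, with Mog, which the rule excluded, Cnp, Cldn11 and Opalin at 0. How much of these UMIs was free RNA was not tested.

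**Figure D2:**
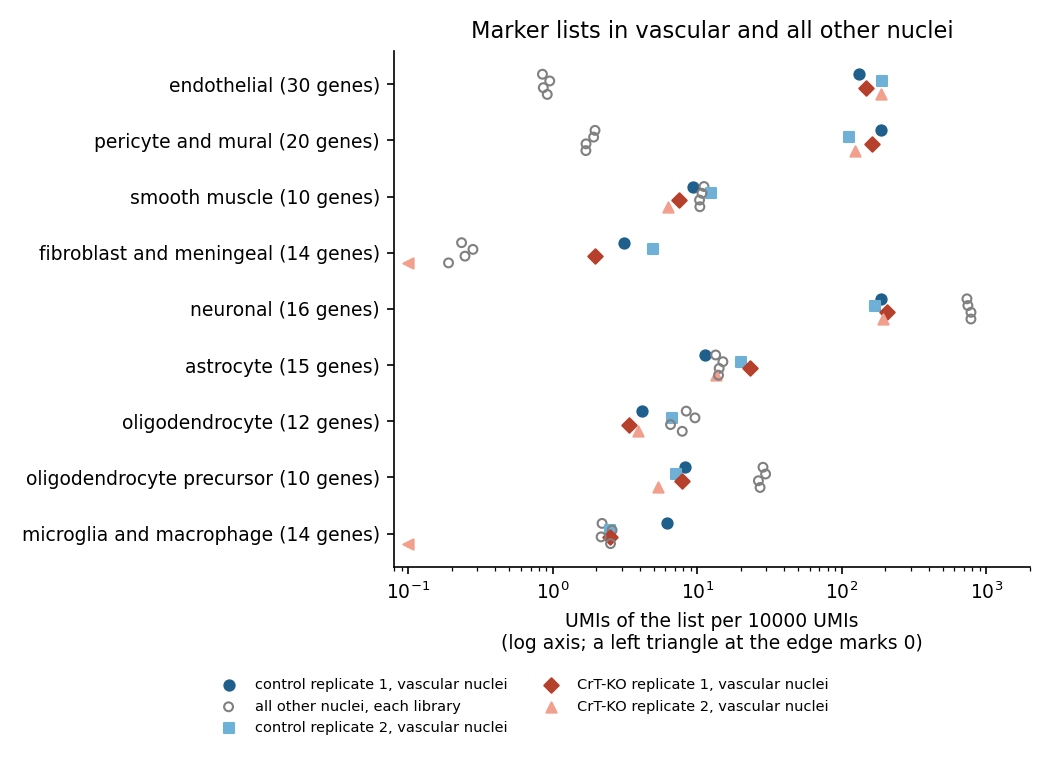
Summed UMIs of 9 marker lists per 10000 UMIs (log axis), in vascular nuclei of each library (filled symbols) and in all other nuclei of the same library (open grey circles), with a left triangle at the edge for 0. The endothelial and pericyte lists lie between 112 and 191 in vascular nuclei and near 1 or 2 elsewhere, and the neuronal list lies between 168 and 205.

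Leading genes outside the rule are given first for the endothelium and then for pericytes. Coordinates are those of GRCm38 (mm10). Adgrl4 (ENSMUSG00000039167, chr3:151437887-151545086, plus strand), an adhesion G-protein-coupled receptor of endothelial cells, gave 13.4 and 16.8 UMIs per 10000 in control and 14.8 and 13.1 in CrT-KO vascular nuclei and 0.00650 in all other nuclei. Slco1a4 (ENSMUSG00000030237, chr6:141805440-141856199, minus strand), an organic anion transporter of the barrier, gave 10.3 and 10.4 per 10000 in control and 15.9 and 19.8 in CrT-KO nuclei. The genotypes did not overlap for Slco1a4, as for 197 of the 663 genes tested below (29.7%), whereas they did for Adgrl4.

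Among the pericyte genes, Atp13a5 (ENSMUSG00000048939, chr16:29231851-29378732, minus strand), a P5-type cation ATPase, gave 35.1 and 15.3 UMIs per 10000 in control and 25.5 and 18.9 in CrT-KO vascular nuclei. It was 573-fold above the level of all other nuclei, and its 278 UMIs lay in 37 nuclei. Abcc9, the sulphonylurea receptor subunit of the pericyte potassium channel, was 1210-fold higher with 116 UMIs in 26 nuclei, and Slc6a20a, a proline transporter, was 461-fold higher with 156 UMIs in 38 nuclei. Ebf1, a transcription factor of both lineages, was found with 515 UMIs in 95 of the 105 nuclei, at 42.3, 39.8, 40.8 and 40.6 per 10000 in the 4 libraries. Cyyr1 was uneven, with no UMI in control replicate 1 and 50, 34 and 23 UMIs in control replicate 2 and CrT-KO replicates 1 and 2.

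The split by rule genes also divided genes that the rule did not use. Since the nuclei themselves define the split, these values are a description, and a fold against 0 is a lower bound computed against 3 UMIs of that side. Adgrl4 gave 191 UMIs in 52 endothelial-side nuclei and none in mural-side nuclei, at least 34.9-fold higher. Abcc4, an efflux pump of the barrier (ENSMUSG00000032849), gave 142 and 0 UMIs (at least 25.9-fold), Pdgfd, a PDGF ligand, 126 and 0 (at least 23.0-fold), and Sema3c, a secreted semaphorin, 111 and 0 (at least 20.3-fold). Slco1c1, the thyroxine transporter, gave 103 and 0 UMIs, Hmcn1, an extracellular matrix hemicentin, 91 and 0, Ptprb, the vascular endothelial phosphatase, 89 and 0, and Tek, the angiopoietin receptor, 47 and 0. Each of these was higher on the endothelial side in all 4 libraries.

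Other genes stood higher on the mural side. Atp13a5 gave 16 UMIs in endothelial-side and 229 in mural-side nuclei (26.1-fold higher per 10000), Abcc9 gave 5 and 87 (31.8-fold), Notch3, the mural Notch receptor, 4 and 50 (22.8-fold), and Plce1, a phospholipase C, 3 and 79 (48.1-fold). Ednra, the endothelin-A receptor, gave 0 and 24 UMIs (at least 14.6-fold), Cysltr2, a leukotriene receptor, 0 and 25 (at least 15.2-fold), and Art3, an ADP-ribosyltransferase family member, 0 and 28 (at least 17.0-fold). The mural side of control replicate 1 held 2 nuclei and 1842 UMIs, where a count of 0 allows up to 16.3 per 10000. Notch3 and Slc38a11 were at 0 there and higher on the mural side in the other 3 libraries.

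**Figure D3:**
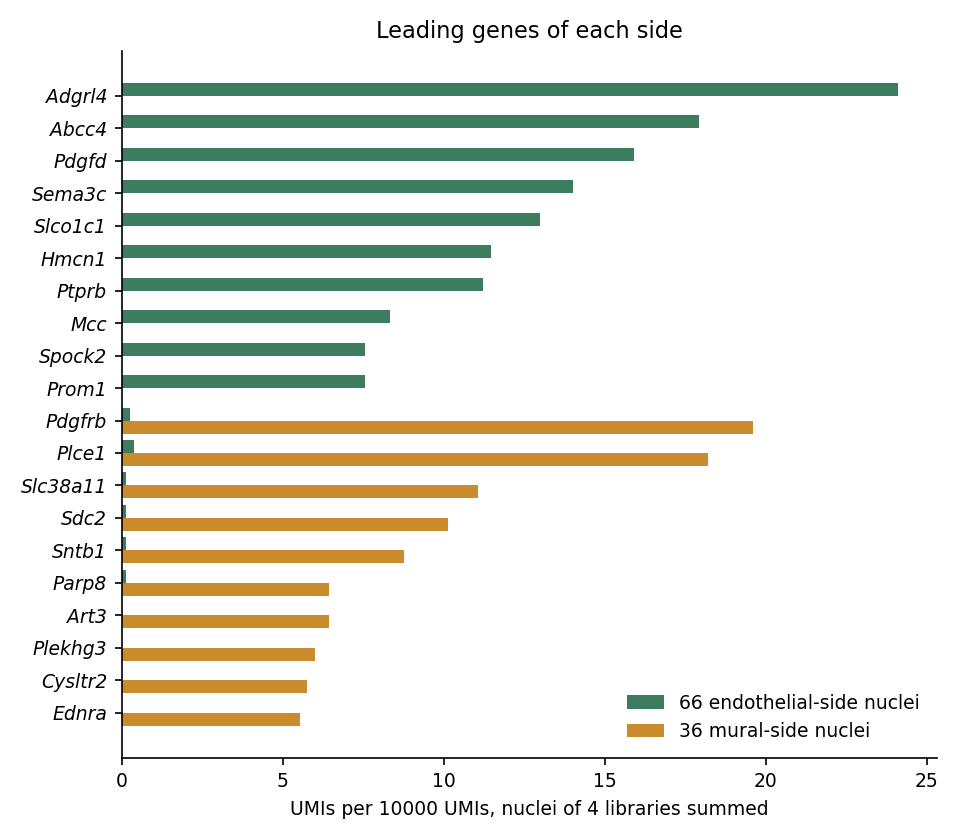
UMIs per 10000 UMIs (bars from 0) of the 10 leading genes of each side, with the 4 libraries summed, in 66 endothelial-side nuclei (green) and 36 mural-side nuclei (ochre). The upper 10 genes have no UMI in mural-side nuclei, and the lower 10 have between 0 and 3 UMIs in endothelial-side nuclei (Pdgfrb among them is a rule gene).

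The promoters of Adgrl4 and Abcc4 are shown because these genes led the endothelial side and held the core letters bound by ETS factors, a family that includes the endothelial regulators Erg and Fli1. Erg gave 19 UMIs in endothelial-side and 1 UMI in mural-side nuclei, and Fli1 gave 82 and 6 UMIs. Each sequence is the RefSeq window of GRCm38.p6 from 250 bases before to 50 bases after the start site, written 5′ to 3′ on the strand of the gene. Capitals mark CCGGAA, searched on both strands. The letters start 25 bases before the start site of Adgrl4 and at base 6 after that of Abcc4.
Adgrl4, chr3:151437632-151437931, plus strand: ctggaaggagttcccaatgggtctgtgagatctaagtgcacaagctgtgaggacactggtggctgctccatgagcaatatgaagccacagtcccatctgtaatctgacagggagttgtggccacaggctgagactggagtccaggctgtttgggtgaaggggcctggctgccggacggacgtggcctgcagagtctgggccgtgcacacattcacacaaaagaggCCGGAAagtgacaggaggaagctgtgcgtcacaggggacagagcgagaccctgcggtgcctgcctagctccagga
Abcc4, chr14:118706170-118706469, minus strand: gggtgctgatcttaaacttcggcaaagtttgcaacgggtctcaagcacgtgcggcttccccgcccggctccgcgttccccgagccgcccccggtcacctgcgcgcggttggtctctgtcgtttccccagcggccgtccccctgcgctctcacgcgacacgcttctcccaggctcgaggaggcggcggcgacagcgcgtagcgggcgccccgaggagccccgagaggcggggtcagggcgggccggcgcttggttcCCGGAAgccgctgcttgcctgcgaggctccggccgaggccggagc
Of the 10 leading endothelial-side genes 8 had a promoter in the RefSeq set, and 2 of the 8 held the motif (25%). Of the 10 leading mural-side genes 6 had a promoter and 0 held it. The motif was held by 4503 of the 27025 genes with a promoter (16.7%), so the share among so few genes says nothing of the group, and a match is not a binding site.

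Barrier transporters followed the endothelial side. The list of 36 genes summed to 155 per 10000 in endothelial-side and 15.4 in mural-side nuclei. Of the 36, 31 were higher in vascular than in other nuclei when the libraries were summed (71.4% of all genes with a UMI were). In each of the 4 libraries 14 were higher (11.9% of all genes). Slc2a1, the glucose transporter GLUT1, gave 6.19 and 6.67 UMIs per 10000 in control and 3.74 and 8.22 in CrT-KO vascular nuclei, with 68 UMIs on the endothelial and 3 on the mural side. Abcb1a, the efflux pump P-glycoprotein, gave 6.19, 5.68, 6.24 and 4.83 per 10000 in the 4 libraries, and Abcg2, a second efflux pump, gave 6.19, 7.41, 4.28 and 4.35. Slc7a5, the large neutral amino acid transporter, gave 46 UMIs, all on the endothelial side. Mfsd2a, the lipid transporter that restrains transcytosis, gave only 6 UMIs, so its level could not be compared between animals.

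Some signalling genes lay mainly on a single side. Lef1, the transcription factor that carries Wnt signals at the barrier, gave 85 UMIs in endothelial-side and 5 in mural-side nuclei (9.31-fold higher per 10000), and 17 of 19 Wnt genes were higher in vascular than in other nuclei when the libraries were summed and 12 in each library. For comparison with this and the next counts, 71.4% of all genes with a UMI were higher in the sum and 11.9% in each library. Of 27 genes of the VEGF, Tie and Notch pathways 24 were higher in the sum and 6 in each library. As a list they differed little between the sides, at 24.9 per 10000 in endothelial-side and 20.5 in mural-side nuclei. Within it Kdr, the main VEGF receptor, gave 16 UMIs in endothelial-side and 1 UMI in mural-side nuclei, and Cdh5, VE-cadherin, 9 and 0. Of 29 basement membrane and integrin genes 27 were higher in the sum and 15 in each library, with Lama2, a laminin chain, at 12 endothelial-side and 94 mural-side UMIs (14.3-fold higher). Vasomotor and caveolar genes summed to 40.8 per 10000 on the endothelial and 121 on the mural side. Vascular transcription factors were more alike, at 117 and 98.9 per 10000. Venous markers were led by Vwf, von Willebrand factor, with 29 UMIs in 18 endothelial-side nuclei, and the arterial list without Mecom was 7.30-fold higher in vascular than in other nuclei.

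The deleted gene could not be assessed in these nuclei. Slc6a8 (ENSMUSG00000019558, chrX:73673150-73682502) gave 0 and 1 UMI in control and 1 and 0 UMIs in CrT-KO vascular nuclei, both in mural-side nuclei, and the floor of 3 UMIs corresponds to 3.1 and 0.741 per 10000 in control and 0.535 and 1.45 in CrT-KO animals. In all other nuclei it stood at 0.0721 and 0.0611 per 10000 in control and 0.0161 and 0.0163 in CrT-KO animals, lower in each CrT-KO animal. Counting covered the whole gene body, so reads outside the deleted exons can still count. Gatm, the first enzyme of creatine synthesis, gave 6 and 7 UMIs in control and 10 and 5 UMIs in CrT-KO vascular nuclei, in 19 nuclei, and was 9.45-fold above all other nuclei when the libraries were summed. It gave 9 UMIs in endothelial-side and 17 in mural-side nuclei. Ckb, brain creatine kinase, gave 2 and 3 UMIs in control and 8 and 3 in CrT-KO nuclei, Gamt, the second synthesis enzyme, gave 0, 0, 1 and 1, and Ckm and Ckmt2 were at 0. None of the 7 creatine genes had enough UMIs to be tested between genotypes.

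The comparison of genotypes used UMIs summed per animal over its vascular nuclei. Of 10604 genes with a UMI, 663 passed the minimum on counts and were tested, and edgeR's quasi-likelihood test called 0 at an adjusted p under 0.1 (0%; the smallest adjusted p was 1.00 after rounding). At an unadjusted p under 0.05 there were 14 genes (2.11%), 9 higher and 5 lower in CrT-KO nuclei, and DESeq2 on the same 663 genes called 0, with 1 at an unadjusted p under 0.05 (on all 10604 genes 0, with 3). The log2 fold change was positive for 323 genes and negative for 340, with a median of -0.01 and a median standard error of 0.49. Libraries did not overlap between genotypes for 197 of the 663 genes (29.7%). On simulated counts for the same 663 genes, edgeR recovered 16.4% of 2-fold, 87.3% of 4-fold and 98.2% of 8-fold changes, with 0, 9 and 17 false calls. Differences near 2-fold were thus mostly not detectable at this depth. The simulation changed 165 of the 663 genes at once and gave all genes the same dispersion. Adjusted p-values are more lenient when many genes change, so recovery of a few changed genes can be lower than these shares.

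No marker list held a called gene. Of the 30 endothelial genes 16 were tested, 6 with positive and 10 with negative log2 fold changes and a median of -0.06, and the libraries did not overlap for 4 of them. Of the 20 pericyte and mural genes 10 were tested, 7 positive and 3 negative, with a median of 0.25 and 3 that did not overlap. Of the 36 barrier transporters 11 were tested, 4 positive and 7 negative, with a median of -0.13. Of the 29 basement membrane and integrin genes 10 were tested, with a median of -0.17; 1 did not overlap in the higher and 4 in the lower direction. Of the 16 neuronal genes 13 were tested, 9 positive and 4 negative, with a median of 0.19, and the 5 that did not overlap were all higher in CrT-KO nuclei. Libraries did not overlap for 197 of all 663 tested genes (29.7%), 102 higher and 95 lower in CrT-KO nuclei. With so few tested genes in each list, these counts are not read as results about the lists. The median over all 663 genes was -0.01, and the summed neuronal list itself was higher in both CrT-KO than in both control animals; its part in other genes' differences was not tested.

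Several genes with the smallest unadjusted p are given with their values, none of them called by edgeR. Notch3 stood at 1.03 and 2.96 per 10000 in control and 5.88 and 4.35 in CrT-KO vascular nuclei (log2 fold change 1.10 ± 0.54 SE). Pde8b, a cAMP phosphodiesterase (ENSMUSG00000021684), stood at 20.6 and 15.1 in control and 31.6 and 25.6 in CrT-KO nuclei (0.76 ± 0.37). For both genes each CrT-KO animal lay above each control animal, and both were mainly mural-side genes. Slco1a4 had a log2 fold change of 0.78 ± 0.43 in the same direction. Trip12, a ubiquitin ligase, stood at 2.06 and 1.98 in control and 4.10 and 6.77 in CrT-KO nuclei (1.34 ± 0.60), and Rtn3, a reticulon of the endoplasmic reticulum, stood at 1.03 and 3.70 in control and 6.24 and 6.28 in CrT-KO nuclei (1.04 ± 0.50). In the other direction, Zfp366, a zinc-finger corepressor found in endothelial-side nuclei, stood at 8.26 and 5.19 in control and 3.21 and 2.42 in CrT-KO nuclei (-1.01 ± 0.51). Trpm3, a cation channel, stood at 5.16 and 5.68 in control and 1.25 and 0 in CrT-KO nuclei (-2.58 ± 0.85), but 19 of the 23 UMIs of control replicate 2 came from 1 nucleus. Notch3 and Trip12 passed the minimum on counts only through the CrT-KO animals, and Zfp366 and Trpm3 only through the control animals. Other genes with a small unadjusted p and no overlap had log2 fold changes of 1.71 (Rgs6), 1.12 (Fam172a), 1.11 (Dock6), 1.02 (Tmcc1), 0.97 (Dnajc1) and 0.95 (Farp1), and of -0.83 (Lrch1), -0.86 (Arhgap31), -0.87 (Fryl), -0.94 (Erbb4), -0.97 (Psd3), -1.26 (Pdzd2) and -1.47 (Dapk1).

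**Figure D4:**
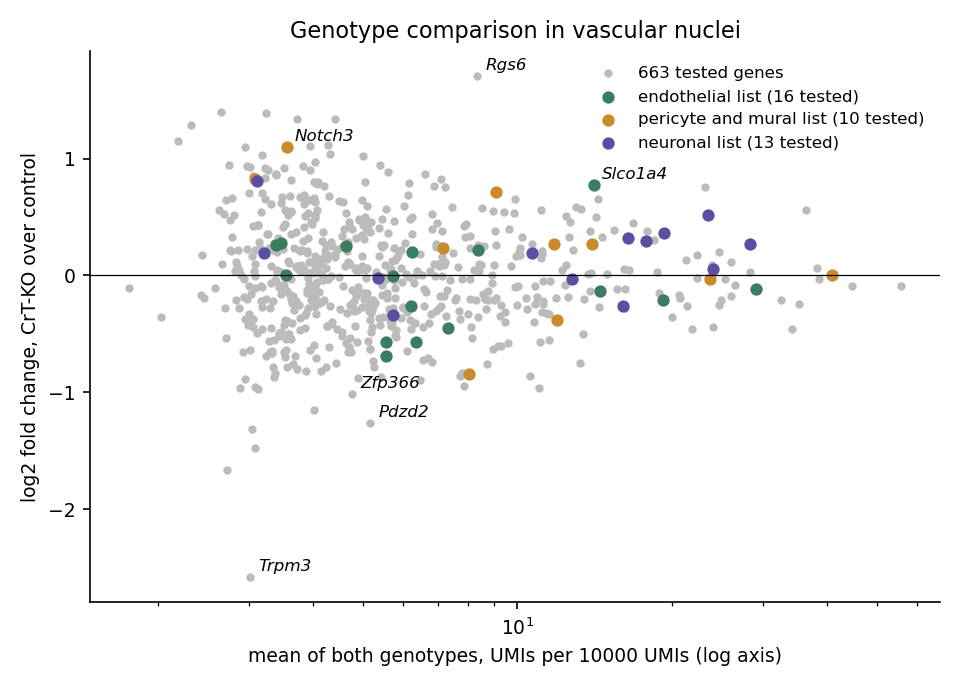
Log2 fold change of CrT-KO over control (y) against the mean level of both genotypes in UMIs per 10000 UMIs (x, log axis) for the 663 tested genes in vascular nuclei, with endothelial, pericyte and neuronal list genes coloured. None of the 663 genes was called by edgeR, and the 16 endothelial and 10 pericyte genes lie on both sides of 0.

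Endothelial-side nuclei alone gave the same count. Of 418 genes tested edgeR called 0 (0%), with 12 at an unadjusted p under 0.05, and DESeq2 called 0 of the same genes, with 2 at that threshold (on all 9401 genes with a UMI 0, with 3). The smallest edgeR adjusted p, 0.158, belonged to Pde8b, with 0 and 0 UMIs in control and 21 and 10 UMIs in CrT-KO endothelial-side nuclei. Pde8b passed the minimum on counts there only through the CrT-KO animals. Of the 21 UMIs, 19 lay in 1 nucleus of 5533 UMIs, the deepest of the 105, which held 51 endothelial and 11 mural rule UMIs and was not marked as a doublet. Slco1a4 stood at 19.2 and 15.0 per 10000 in control and 27.4 and 27.9 in CrT-KO endothelial-side nuclei and was not called. Genes that did not overlap between genotypes numbered 136 of 418 (32.5%).

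In mural-side nuclei edgeR called 1 of 132 genes (0.758%), with 9 at an unadjusted p under 0.05. The gene was Rgs6 (ENSMUSG00000021219, chr12:82588292-83162056, plus strand), a regulator of G-protein signalling that is widely used by neurons. Its UMIs were 0 and 6 in control and 66 and 15 in CrT-KO mural-side nuclei, or 0, 4.79, 28.6 and 25.1 per 10000, and it was found in 0 of 2, 4 of 11, 17 of 18 and 5 of 5 nuclei. The level was 2.40 ± 3.39 per 10000 in control and 26.9 ± 2.47 in CrT-KO animals (mean ± SD, n = 2 each), and CrT-KO exceeded control by 2.64 ± 0.55 (SE) on the log2 scale (adjusted p = 0.000391 by edgeR). Rgs6 passed the minimum on counts only through the CrT-KO animals, where it was high, so its entry into the test was not independent of the difference. DESeq2 called 0 of the same 132 genes, with 1 at an unadjusted p under 0.05 and a log2 fold change of 2.81 for Rgs6, and 0 of all 7486 genes with a UMI, with 7 at that threshold. Libraries did not overlap for 45 of the 132 genes (34.1%). The neuronal list in the same mural-side nuclei stood at 168 and 165 per 10000 in control and 221 and 188 in CrT-KO animals, and its part in the Rgs6 difference was not tested.

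The Rgs6 difference depended on which pericyte nuclei were taken. As a check added after the call was seen, mural nuclei were chosen by 10 other markers (Atp13a5, Abcc9, Kcnj8, P2ry14 and Notch3 for the mural and Adgrl4, Slco1a4, Ptprb, Abcb1a and Ly6c1 for the endothelial side) at the same thresholds. This gave 74 nuclei, 35 of them among the 105, with Rgs6 at 16.6 and 19.4 per 10000 in control and 23.4 and 19.2 in CrT-KO animals (log2 fold change 0.22, edgeR adjusted p = 0.946). In the 39 of these nuclei outside the 105, 10 and 10 in control and 8 and 11 in CrT-KO animals, Rgs6 stood at 16.9 and 33.3 in control and 11.1 and 15.5 in CrT-KO animals (log2 fold change -0.99, edgeR adjusted p = 0.260). The direction was thus reversed in nuclei that the rule did not take, whereas within the rule edgeR still called Rgs6 without each of the other 3 libraries. Without CrT-KO replicate 1 its log2 fold change was 2.56 and it was not called (edgeR adjusted p = 0.988).

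**Figure D5:**
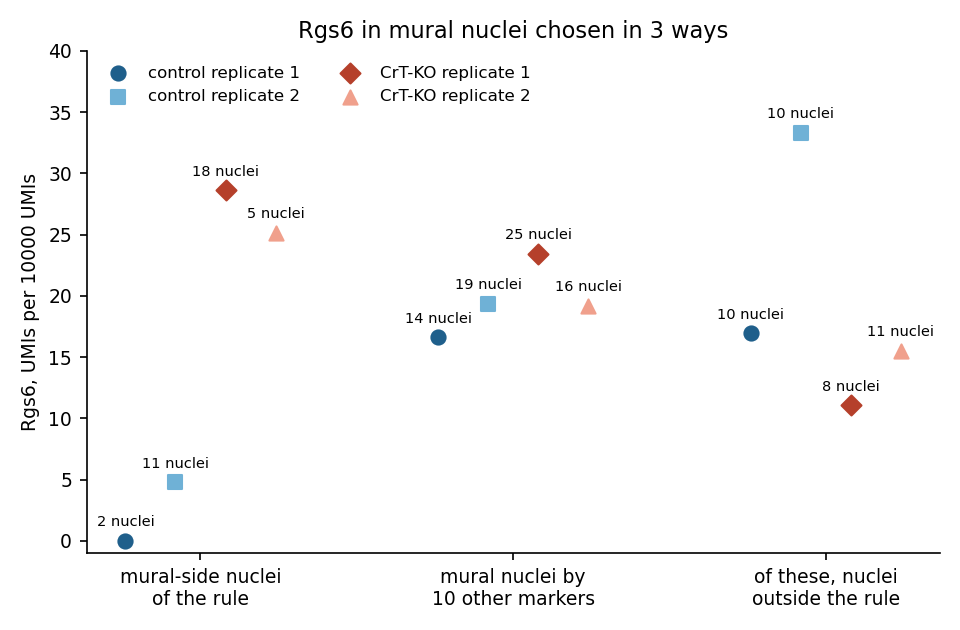
Rgs6 in UMIs per 10000 UMIs (y) in each library, for mural-side nuclei of the rule, mural nuclei chosen by 10 other markers and those of the latter outside the rule, with the number of nuclei beside each point. Controls lie at 0 and 4.79 in the first set, and at 16.9 and 33.3 in the last.

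Other genes of mural-side nuclei were not called. Psd3, an exchange factor, stood at 21.7 and 23.2 per 10000 in control and 9.97 and 10.1 in CrT-KO nuclei (edgeR adjusted p = 0.256), and Lama2 stood at 38.0 and 34.4 in control and 11.7 and 28.5 in CrT-KO nuclei. Gpc6, a glypican, stood at 21.7 and 11.2 in control and 27.8 and 43.6 in CrT-KO nuclei (edgeR adjusted p = 0.203). For these genes the animals of the genotypes did not overlap, as for 34.1% of the genes tested. The levels of control replicate 1 rest on 4 UMIs of Psd3, 7 of Lama2 and 4 of Gpc6, from 2 nuclei. Psd3 passed the minimum on counts only through the control animals.

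Whether the effect of genotype in vascular nuclei differed from that in the rest of the cortex was tested as an interaction on sums per library. edgeR called 0 of 663 genes (0%), with 13 at an unadjusted p under 0.05 and a smallest adjusted p of 0.752, and DESeq2 called 0, with 7 at that threshold. Rgs6 in all other nuclei stood at 9.18 and 9.07 per 10000 in control and 8.06 and 7.85 in CrT-KO animals, and its interaction was 1.90 on the log2 scale and not called. A further interaction, added after the mural-side call was seen, compared the effect of genotype between mural-side and endothelial-side nuclei, and edgeR called 2 of 474 genes (0.422%), Pde8b and Atp13a5, whose endothelial-side UMIs all came from CrT-KO animals.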

How the data were processed

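Single-nucleus RNA was measured in 4 libraries of 1 mouse each, 2 control and 2 CrT-KO, so the animal was the replicate. edgeR and DESeq2 estimate the spread of each gene partly from all tested genes. With 2 animals of each genotype their p-values therefore do not rest on the spread of that gene between animals alone. The authors deposited raw UMI counts per gene and nucleus, made with Cell Ranger 3.1.0 against a pre-mRNA GRCm38 (mm10) reference with Ensembl 99 genes, in which whole gene bodies count as exon, so intronic molecules are included. They kept barcodes above 10% of the 99th percentile of UMIs, which leaves out the shallowest nuclei, and named Seurat 3.1.4 for later steps. Whether counting used strand was not given in the sources used here. Of 21933 genes 21893 (99.8%) were found by identifier in GENCODE vM21, the source of coordinates.

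Vascular nuclei were found by the stated rule, with doublets kept. UMIs were summed per library and tested with edgeR 4.0.16 (quasi-likelihood test with TMM scaling, filterByExpr with a count minimum of 10 and a total of 15, Benjamini-Hochberg adjusted p under 0.1) in R 4.3.3. filterByExpr applies the count minimum of 10 as a level scaled to library depth, not as 10 UMIs in every library. A shallow library can thus meet it with fewer UMIs than a deep library. This minimum had to be met in 2 libraries, so a gene high in a single genotype could pass through that genotype alone. DESeq2 1.42.0, removal of doublets (Scrublet in scanpy 1.11.5), other thresholds, a replicate block, other markers and leaving out each library were alternatives. Levels are UMIs per 10000 UMIs of the population. The SE given with an edgeR log2 fold change was computed from the test. It is the absolute fold change divided by the square root of the F statistic. Testing was checked on simulated data. The members and gene lists were chosen with earlier results of these data known. Genes were named by rule: the 6 rule genes and creatine genes, the 15 genes with the largest ratio of vascular to other nuclei, 10 for each side, up to 3 tested genes of each list by level, called genes, and up to 10 each way with the smallest p and no overlap. Other list genes, and Gpc6 and Psd3 in mural-side nuclei, were chosen after their values were seen. Some genes that these rules reach are not reported here.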

Additional observations from a re-analysis of the deposited data

Results flagged for a closer look

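The effect of genotype differed between mural-side and endothelial-side nuclei for 2 of 474 genes (0.422%) by an edgeR interaction test that was added after the mural-side result was seen. For Pde8b the log2 fold change of the mural side minus that of the endothelial side was -5.93 ± 1.40 SE (edgeR adjusted p = 0.0118), and for Atp13a5 it was -5.30 ± 1.50 SE (edgeR adjusted p = 0.0977). The controls had no endothelial-side UMI of these genes, so the fitted values, and the SE computed from them, depend on the prior count. Endothelial-side UMIs in control and CrT-KO replicates were 0, 0, 21 and 10 for Pde8b and 0, 0, 12 and 4 for Atp13a5, and mural-side UMIs were 6, 61, 133 and 43 and 13, 62, 119 and 35. A CrT-KO replicate 1 nucleus of 5533 UMIs with both kinds of rule gene held 19 of the 21 Pde8b and all 12 Atp13a5 UMIs, and 1 nucleus of CrT-KO replicate 2 held 6 and 4. Without the 8 nuclei that held at least 3 UMIs of each side, edgeR called 0 of 362 genes, with 8 at an unadjusted p under 0.05.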

How the results depend on the processing

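Calls rested on few nuclei and on single libraries. In vascular nuclei 14 of 16 alternatives called 0 genes; 3 were called without control replicate 1 (Plcl1, Rgs6 and Trpm3) and 1 with at least 2 rule UMIs (Trpm3), and leaving out a library gave 0 to 3. In endothelial-side nuclei removing doublets gave 1 (Pde8b) and leaving out a library 0 to 1 (mt-Atp6 without control replicate 2, Pde8b without CrT-KO replicate 2). In mural-side nuclei DESeq2 (on all genes with a UMI, or, added after seeing the data, on those edgeR tested), no filter on low counts and the 10 other markers gave 0, at least 2 rule UMIs 2 (Gpc6 and Rgs6), the other markers outside the rule 3 (Lrrtm4, Lsamp and Pde10a), at least 5 UMIs and 40 per 10000 1 (Plcl1 in place of Rgs6), and leaving out a library 0 (CrT-KO replicate 1) to 7 (control replicate 2). The interaction with all other nuclei gave 0 to 2 (2 without control replicate 1, Plcl1 and Rgs6). The interaction of the sides gave 0 without the nuclei of both kinds, 0 by the other markers and 0 to 2 without a library (1 without control replicate 1, Pde8b; 2 without control replicate 2, mt-Atp6 and mt-Cytb in place of Pde8b and Atp13a5; 0 without either CrT-KO library). Leaving out a library moved the difference in the share of vascular nuclei between -0.0639 and 0.203 percentage points, and that in the endothelial-side share between -13.4 and 10.3.

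Of 387 values of 26 genes under alternatives 363 kept direction and side of the threshold, 5 lost and 3 gained the call, and 16 changed sign. Without control replicate 2 and without CrT-KO replicate 1, Flt1 had log2 fold changes of 0.30 and 0.23 (lowest without a library -0.39), Mecom 0.57 and 0.10 (lowest -0.50) and Pecam1, which lay near 0 with all libraries, 2.03 and 0.33 (lowest -0.30). Mecom gave 0.0019 by the other markers and 0.0405 without nuclei with UMIs of other lineages. Pecam1 gave 0.32 by DESeq2 (0.25 on the genes edgeR tested), 0.14 without a filter, 0.34 with the replicate block, 0.0219 without doublets, 0.0660 with at least 2 rule UMIs and 0.095 by the other markers. Rgs6 in mural nuclei outside the rule gave -0.99. No cause was tested.

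Replicate numbers are shared between genotypes. Deviations of control replicate 1 and CrT-KO replicate 1 from their group means correlated at 0.0844 across genes. Counting noise at this depth can lower such a correlation, so it cannot tell whether the numbers pair the animals. With the replicate block edgeR called 0 genes in vascular nuclei (smallest adjusted p = 0.148) and in endothelial-side nuclei, and 1 in mural-side nuclei (Rgs6, adjusted p = 0.0385).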

Other observations

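Antigen presentation genes lay mainly on the endothelial side. Of 17 genes of the interferon and antigen presentation list 16 were higher in vascular than in other nuclei when the libraries were summed (71.4% of all genes with a UMI were) and 5 in each of the 4 libraries (11.9% of all genes), and the list summed to 16.3 per 10000 in endothelial-side and 2.07 in mural-side nuclei. H2-D1, a class I heavy chain, gave 30 and 1 UMIs, H2-K1, another heavy chain, 24 and 0, and B2m, their shared light chain, 17 and 0. These genes were named after their values were seen. H2-D1 had enough UMIs to be tested between genotypes in endothelial-side nuclei, at 0 and 2.50 per 10000 in control and 4.79 and 5.44 in CrT-KO animals, and was not called (log2 fold change 1.35 ± 0.93 SE, edgeR adjusted p = 0.999). H2-D1 passed the minimum on counts only through the CrT-KO animals. Basigin (Bsg), a chaperone of monocarboxylate transporters, gave 148 UMIs in endothelial-side and 4 in mural-side nuclei, while Slc16a1, one such transporter, gave 6 UMIs in all. Klf2, a transcription factor induced by blood flow, gave 41 UMIs in 24 endothelial-side nuclei and none in mural-side nuclei.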
